A study of Mus musculus with 33 samples.

Results

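In undifferentiated P19 cells, 55 of 14717 measured genes had a mean log2 of at least 9 and at least 2 above every differentiated group. They were chosen by averaging the 3 log2 values of each group and keeping genes with a D0 mean of at least 9 that lay at least 2 above the highest of the other 4 group means, with mitochondrial genes, Lars2 and Gm15564 left out. In ratios of mean CPM, Trp73 (3.67), Nr5a1 (3.82) and Gm5424 (3.88) stood under 4-fold above D3DMSO. The set holds 52 protein-coding genes and 3 pseudogenes. P19 is a mouse embryonal carcinoma line whose cells resemble those of the early embryo. D0 is the undifferentiated line, and the other groups were made with all-trans retinoic acid (RA, 1 µM; D3RA and D6RA) or with dimethyl sulfoxide (DMSO, 1%; D3DMSO and D6DMSO), as embryoid bodies for the first 2 days and in flasks with maintenance medium afterwards, with RNA taken at day 3 or day 6. Each group has 3 RNA libraries. All come from 1 line, and no group of untreated cells at day 3 or 6 was analysed here. The labels do not say that the 3 samples of a group came from separate cultures, so p-values measure the spread between these samples only, which may be technical.

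Pluripotent cells keep their state through a circuit of transcription factors around Pou5f1, Sox2 and Nanog, helped by chromatin-associated proteins and by secreted factors of the TGF-beta family. Leaving that state switches off genes that the circuit holds on, while retinoic acid, acting through nuclear receptors, directs P19 cells towards neurons and DMSO directs them towards mesoderm and its derivatives. Nr0b1, an orphan nuclear receptor that curbs transcription, and Utf1, a chromatin-associated factor, are known as genes of undifferentiated embryonic cells.

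Both of these markers were among the 55. Nr0b1 read 66.3, 64.3 and 63.3 CPM in the D0 libraries, 3.04, 0.616 and 2.01 in D3DMSO, 1.64, 1.63 and 1.83 in D3RA, 2.5, 3.53 and 3.15 in D6DMSO and 0.298, 0.246 and 0.0939 in D6RA. For Nr0b1 (ENSMUSG00000025056) the lowest D0 library lay far above every other library, and the 3 D6RA libraries were the lowest of all. Utf1 read 101, 101 and 95.3 CPM in the D0 libraries, 13.4, 5.13 and 9.6 in D3DMSO, 0.182, 0.651 and 0.457 in D3RA, 2.76, 4.79 and 4.42 in D6DMSO and 0.0662, 0.0819 and 0.0626 in D6RA. Utf1 (ENSMUSG00000047751) fell into steps, with D0 on top, the DMSO groups below it and both RA groups under 1 CPM. The stretches of 250 bases before the start of both genes, from RefSeq on GRCm38.p6, are shown 5′ to 3′ because these are the named markers of the set. Capitals mark matches to any of the 13 short motifs searched on both strands.
Utf1, chr7:139943606-139943855, + strand: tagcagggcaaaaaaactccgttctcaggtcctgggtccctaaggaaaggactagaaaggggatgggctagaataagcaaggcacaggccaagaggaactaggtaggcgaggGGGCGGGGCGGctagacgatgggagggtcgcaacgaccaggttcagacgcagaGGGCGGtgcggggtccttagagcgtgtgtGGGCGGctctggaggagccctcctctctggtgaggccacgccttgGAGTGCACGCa
Nr0b1, chrX:86191525-86191774, + strand: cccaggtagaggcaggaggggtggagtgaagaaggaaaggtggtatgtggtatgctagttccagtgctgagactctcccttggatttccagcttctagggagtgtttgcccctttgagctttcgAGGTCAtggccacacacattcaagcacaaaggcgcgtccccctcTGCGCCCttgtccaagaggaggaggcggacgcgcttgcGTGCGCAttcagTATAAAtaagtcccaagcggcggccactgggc
In Utf1 the capitals are 4 GC boxes (GGGCGG or its reverse, the site of SP and KLF factors), of which the first 2 overlap, and 2 overlapping matches to TGCACNC, a core of metal response elements. Nr0b1 shows a TATA box (TATAAA) 32 to 27 bases before the start, a nuclear receptor half-site (AGGTCA) at 126 to 121 bases before it, and 2 matches to TGCGCNC, another metal response core.

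Total counts per library were 3.55 to 9.88 M at D0 and day 3 and 38.2 to 49.6 M at day 6. Mitochondrial genes took 41.6% to 55.8% of the day 6 counts and 0% of all earlier ones, so the day and the library set cannot be told apart. At D0 and day 3, 4 genes that include Lars2 and Gm15564 took 1.97% to 45.7% of non-mitochondrial counts, unevenly within groups, with 32.8% in D3DMSO replicate 2. In that library the median gene of the set stood at 11.4% of the D0 mean. In D3DMSO replicates 1 and 3, where the 4 genes took 3.09% and 24.0%, it stood at 18.5% and 15.5%. In D3RA replicates 1, 2 and 3, where the 4 genes took 1.97%, 39.5% and 45.7%, it stood at 3.96%, 5.68% and 3.42%. Whether the uneven share played a part was not tested. In bulk RNA, fewer cells of a type and less RNA per cell cannot be told apart. Levels are in CPM, read counts scaled for library size as in the deposited values, and are not per length, so they compare a gene between groups and not genes with each other.

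As a description of how the set was chosen, the gap between D0 and the next group ran from 2.01 to 5.11 on the log2 scale, with a median of 2.48. The D0 means ran from 9.10 to 17.31. In all 55 genes the 3 D0 libraries lay above all 12 others, an order that the rule favours. The share of all genes with this order is not given here, and nothing is read from the members' count. Calls are a different measure, explained below. Over all 14717 genes, 56.1% were called between D3DMSO and D0 (27.8% lower) and 68.9% between D3RA and D0 (33.9% lower). Among the 55 genes, the coefficient of variation between the D0 libraries had a median of 9.47% and reached 30.5%. The genes just inside the gap threshold were Pde4b (2.01), Nr5a1 (2.02) and Map7d3 (2.02), and those just outside were C1ql2 (1.996), Zic5 (1.99) and Slc1a6 (1.96). At the level threshold, Lrrc2 (9.10), Ngef (9.25) and Vwa2 (9.25) lay just inside and Ccl17 (8.60) and Rcvrn (8.01) outside.

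**Figure D1:**
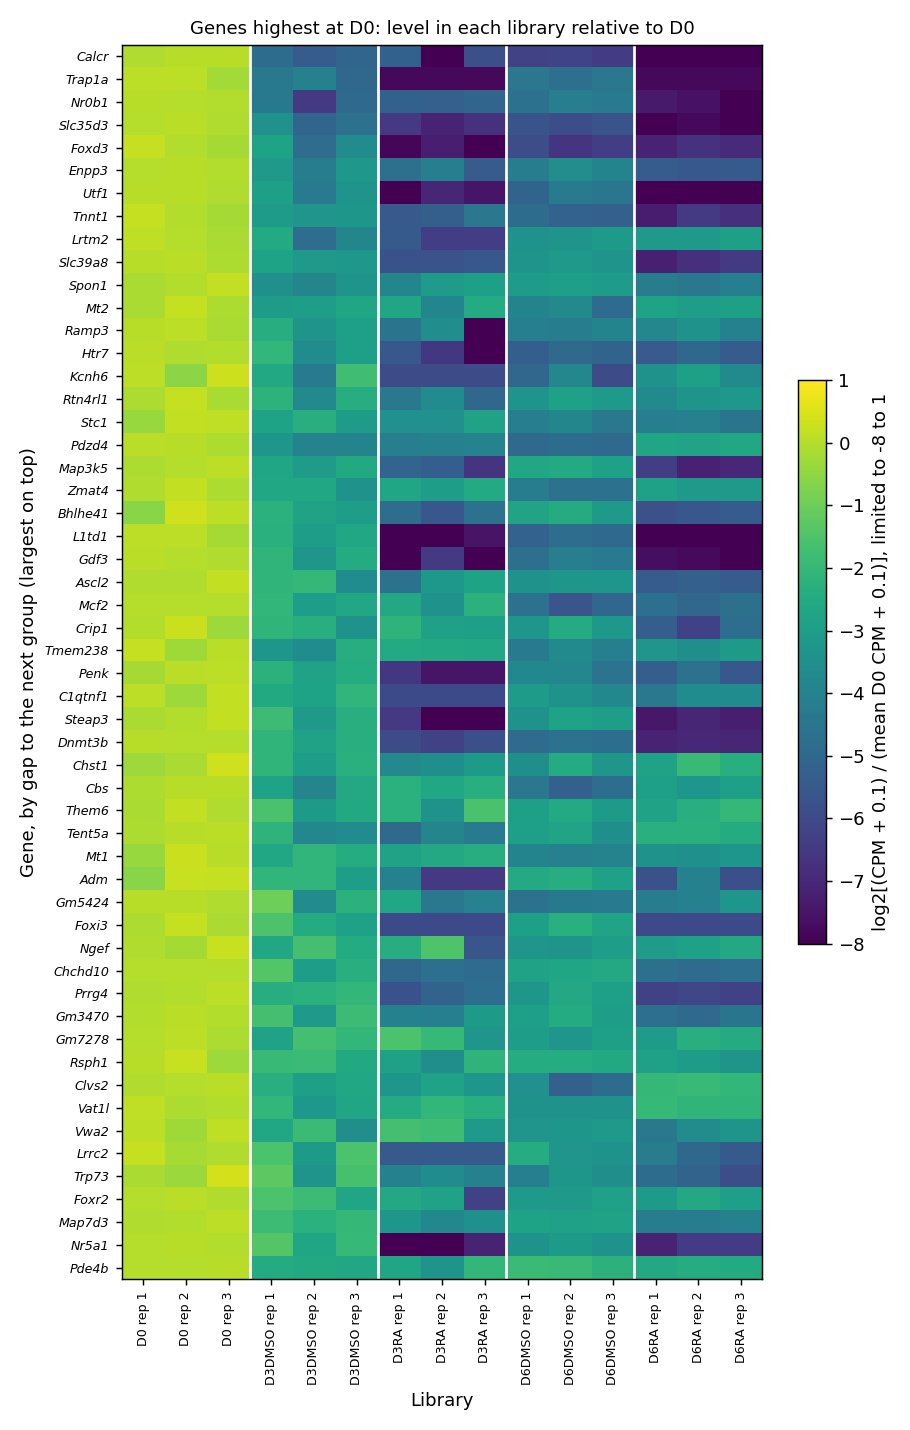
Level of 54 of the 55 genes (rows) in each of the 15 libraries (columns), as log2 of CPM over the D0 mean with 0.1 CPM added to both, on a colour scale from -8 (dark) to 1 (bright). All rows drawn are bright in D0; the dark cells gather in the RA columns, as for L1td1, Gdf3, Nr5a1 and Utf1, while rows such as Mt2, Pdzd4 and Vat1l stay lighter in D6RA than in D6DMSO.

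What was left of each gene is given as a percent of its D0 mean. In D3DMSO the group mean was 2.84% to 27.3% of D0, with a median of 16.3%. In D3RA it was 0% to 22.6%, with a median of 4.76%, and 39 genes were under 10% of D0 against 10 in D3DMSO. At day 6 the medians were 8.78% in D6DMSO and 3.7% in D6RA. By mean log2 value rather than percent, D3DMSO was the highest of the 4 differentiated groups for 37 genes, D3RA for 7, D6RA for 6 and D6DMSO for 5. By percent the highest group differs for Mt2 and Crip1.

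**Figure D2:**
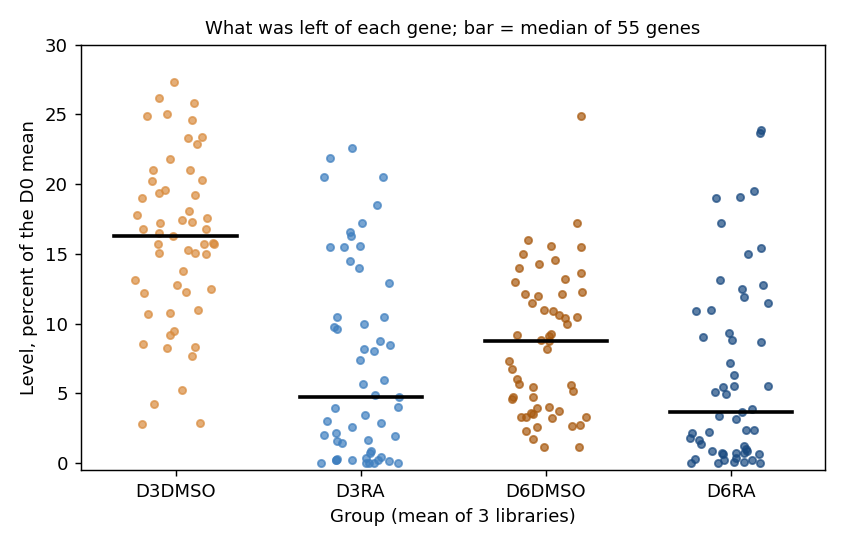
Group mean level of each of the 55 genes (points) as a percent of its D0 mean, in the 4 differentiated groups, with a black bar at the median of the 55. The bars sit at 16.3% in D3DMSO, 4.76% in D3RA, 8.78% in D6DMSO and 3.7% in D6RA.

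Because the rule caps all 4 differentiated groups alike, differences between them were tested, with limma across all 14717 genes and a call at a Benjamini-Hochberg adjusted p under 0.05. Differences between treatments are log2 values, RA minus DMSO, from this fit. At day 3, 32 of the 55 were lower in D3RA than in D3DMSO and 0 were higher. Among all genes 31.4% were called lower and 30.7% higher, against 58.2% and 0% of the 55; the share called in either direction, 58.2%, was near the 62.1% of all genes. The median log2 difference was -1.48 over the set and -0.01 over all genes. Of the 55 differences 44 were below 0 and 11 above. For the count of 0 higher, 1 gene (Cbs) was higher at an unadjusted p under 0.05, and voom weights gave 0. Without 1 library at a time, 28 to 35 were lower and 0 to 2 higher, with 2 higher without D3DMSO replicate 1 or 3. The shares of all genes in those settings are not given here.

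At day 6, 28 were lower in D6RA than in D6DMSO and 9 were higher, 67.3% in all against 65.8% of all genes. By direction, 50.9% of the set was lower, against 33.1% of all genes, and 16.4% higher, against 32.6%. In 22 genes the RA group was lower on both days. Another 9 were lower at day 3 and not called at day 6, 6 were lower at day 6 alone, 8 were higher at day 6 alone, and Kcnh6 was lower at day 3 and higher at day 6. The remaining 9 (Gm5424, Gm7278, Mcf2, Ngef, Pde4b, Rsph1, Stc1, Them6 and Vwa2) were called on neither day. The shares of all genes with these patterns across the days are not given here, and nothing is read from these counts.

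A change in the fitted difference between treatments from day 3 to day 6 (an interaction term) was called in 27 of the 55. That is 49.1%, against 48.5% of all genes. The difference went up in 19 (34.5%, against 25.4%) and down in 8 (14.5%, against 23.1%). Foxi3 (-2.31) and Trap1a (-2.61) held 0 counts in every RA library. The value deposited for 0 counts was 2.54 to 4.87 in D3RA and 1.00 to 1.39 in D6RA. The interactions of these genes therefore depend on that value, as do those of other genes with few counts. After thinning, which draws every library down to the depth of the shallowest, 11 were called, 8 up and 3 down. Thinning leaves fewer counts for genes in general, and the share of all genes called after it is not given here.

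Some calls were lost when 1 library was left out, in places a library of a group not compared. At day 3 the call was lost for Kcnh6 without D3DMSO replicate 3 or D3RA replicate 1 (adjusted p = 0.0579 and 0.0605), for Tent5a without replicate 1 of either group (0.0688 and 0.0661), and for Trp73 without D3DMSO replicate 1 (0.051). Foxr2 lost it without D3DMSO replicate 1 or 2 or D3RA replicate 3 (0.0579 to 0.104), and Chst1 without D3DMSO replicate 1 or 3 or D3RA replicate 1 or 2 (0.0627 to 0.134). At day 6 Kcnh6 lost it without D6DMSO replicate 3 or D6RA replicate 2 (0.135 and 0.0667), and Tmem238 without any 1 library of D0 or D6RA, D3RA replicate 1 or D6DMSO replicate 1 or 3 (0.0502 to 0.148). Gm7278 was called at day 6 only after thinning. Thinning left 25 calls at day 3 and 27 at day 6, without a share of all genes given here. It took those of Lrtm2, Kcnh6, C1qtnf1, Chst1, Gm3470, Trp73 and Foxr2 at day 3 and of Calcr, Spon1, Kcnh6, Zmat4, Ascl2, Tmem238, Penk, Cbs, Mt1, Lrrc2 and Trp73 at day 6.

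**Figure D3:**
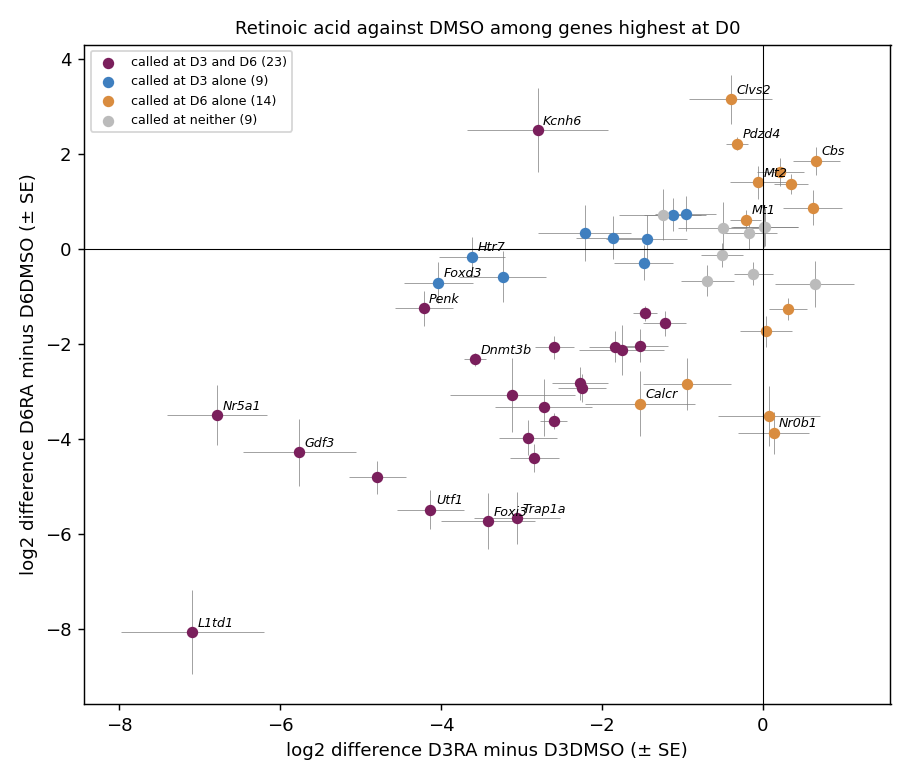
Difference between RA and DMSO at day 3 (x axis, D3RA minus D3DMSO, log2) and day 6 (y axis, D6RA minus D6DMSO, log2) for each of the 55 genes, with SE bars and colours for the days on which limma called it. No gene with a day 3 difference above 0 is called at day 3, and L1td1 lies lowest on both axes while Kcnh6, Clvs2 and Pdzd4 lie above 0 at day 6.

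The genes are described below by role, in groups of 3 to 11 whose counts are a description; of all genes 31.4% were lower in RA at day 3 and 33.1% at day 6, and of the 55 genes 58.2% and 50.9%. Of 11 genes for transcription factors and chromatin proteins, 8 were lower in RA at day 3 and 8 at day 6, and Zmat4 was higher at day 6. Utf1 differed by -4.13 ± 0.42 (SE), adjusted p = 2.34e-07, at day 3 and by -5.48 ± 0.42 (SE), adjusted p = 4.25e-09, at day 6. Nr0b1 did not follow it: the difference at day 3 was 0.14 ± 0.44 (SE), adjusted p = 0.805, with overlapping libraries, and that at day 6 was -3.87 ± 0.44 (SE), adjusted p = 7.03e-07. At day 3, of these 2 genes, only Utf1 was called between treatments.

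Dnmt3b, the DNA methyltransferase that sets new methylation marks, had the highest log2 level of the set at D0. Dnmt3b read 1288, 1271 and 1261 CPM in the D0 libraries, 293, 182 and 252 in D3DMSO, 20.5, 16.6 and 22.8 in D3RA, 44.1, 51.1 and 46.9 in D6DMSO and 9.04, 9.75 and 9.52 in D6RA. Its 5 groups did not overlap, in the order D0, D3DMSO, D6DMSO, D3RA and D6RA. The differences between treatments were -3.58 ± 0.14 (SE), adjusted p = 1.48e-12, at day 3 and -2.33 ± 0.14 (SE), adjusted p = 1.46e-10, at day 6. Nr5a1, a nuclear receptor best known as steroidogenic factor 1 and a relative of a pluripotency regulator, lay just inside the gap threshold, with D3DMSO as the next group. Nr5a1 read 76.3, 77.8 and 75.5 CPM in the D0 libraries, 28.6, 11.9 and 19.7 in D3DMSO, 0, 0 and 0.457 in D3RA, 7.06, 8.78 and 7.05 in D6DMSO and 0.463, 0.778 and 0.783 in D6RA. The RA groups were under 1 CPM in every library. At day 3 the summed counts were 392 in D3DMSO and 1 in D3RA, which is 343-fold (61.2 to 13600, 95% interval for counting error; adjusted p = 7.28e-08), and at day 6 the difference was -3.50 ± 0.62 (SE), adjusted p = 9.82e-05. Foxd3, a forkhead repressor of embryonic stem cells and neural crest, was above 2 CPM outside D0 only in D3DMSO. Foxd3 read 73.6, 63.1 and 56.1 CPM in the D0 libraries, 9.25, 2.26 and 4.96 in D3DMSO, 0.182, 0.326 and 0 in D3RA, 1.01, 0.546 and 0.7 in D6DMSO and 0.364, 0.533 and 0.438 in D6RA. With 3 counts in D3RA its day 3 ratio was 32.1 (10.7 to 158; adjusted p = 4.34e-07), whereas day 6 differed by -0.71 ± 0.43 (SE), adjusted p = 0.154.

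The forkhead gene Foxi3 held 0 counts in all 6 RA libraries. Foxi3 read 5.74, 7.08 and 5.58 CPM in the D0 libraries, 2.07, 1.03 and 0.774 in D3DMSO, 0, 0 and 0 in D3RA, 0.746, 1.18 and 0.832 in D6DMSO and 0, 0 and 0 in D6RA. It was at least 6.99-fold lower in D3RA than in D3DMSO and at least 26.5-fold lower in D6RA than in D6DMSO, taking 3 counts over the group as the floor (adjusted p = 8.02e-05 and 1.74e-07). Bhlhe41, a repressor of the circadian system, and Trp73, of the p53 family, were lower in RA on both days. Foxr2 was lower at day 3 alone. Ascl2, a basic helix-loop-helix factor of trophoblast and intestinal stem cells, was lower at day 6 alone.

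Among 7 genes for secreted proteins, 4 were lower in RA on each day. The shares lower at day 3 and day 6 were 58.2% and 50.9% of the 55 genes, and 31.4% and 33.1% of all genes. Nothing is read from a group of this size. Gdf3, a TGF-beta family ligand of pluripotent cells, was 1 of the 4 on both days. Gdf3 read 70.9, 66.5 and 64.3 CPM in the D0 libraries, 15.6, 6.98 and 12.1 in D3DMSO, 0, 0.651 and 0 in D3RA, 2.54, 3.65 and 3.41 in D6DMSO and 0.232, 0.205 and 0.0626 in D6RA. D3DMSO stood between D0 and the rest, and in D3RA a single library held counts, 2 in all. The day 3 ratio of summed counts was 98.4 (26.9 to 817; adjusted p = 2.33e-06), and day 6 differed by -4.28 ± 0.71 (SE), adjusted p = 4.46e-05. Adm, the vasodilator peptide adrenomedullin and a hypoxia-induced gene, was also lower on both days. Adm read 5.95, 10.7 and 10.5 CPM in the D0 libraries, 2.07, 2.05 and 1.08 in D3DMSO, 0.455, 0 and 0 in D3RA, 1.53, 1.64 and 1.18 in D6DMSO and 0.0662, 0.451 and 0.0626 in D6RA. In D3RA 2 libraries held 0 counts, and the differences were -2.72 ± 0.60 (SE), adjusted p = 0.000869, and -3.33 ± 0.60 (SE), adjusted p = 0.000114. Penk, the enkephalin precursor, was lower on both days as well, and C1qtnf1 at day 3 alone.

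Spon1, the matrix protein spondin 1, went another way. Spon1 read 37.3, 40.3 and 47.3 CPM in the D0 libraries, 3.59, 2.67 and 4.03 in D3DMSO, 2.73, 4.89 and 5.48 in D3RA, 4.96, 5.42 and 4.95 in D6DMSO and 2.15, 1.89 and 2.32 in D6RA. The day 3 groups overlapped, with a difference of 0.31 ± 0.23 (SE), adjusted p = 0.257, and at day 6 RA was lower, with -1.27 ± 0.23 (SE), adjusted p = 0.000144. Stc1 and Vwa2 were called between treatments on neither day.

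Calcr, the calcitonin receptor, had the largest gap of the set. Calcr read 77.4, 83 and 83.8 CPM in the D0 libraries, 2.76, 1.85 and 2.32 in D3DMSO, 2.1, 0 and 1.37 in D3RA, 0.965, 1.01 and 0.875 in D6DMSO and 0.0662, 0.041 and 0.188 in D6RA. Every differentiated library was under 3 CPM. At day 3 the difference between treatments was -1.52 ± 0.68 (SE), adjusted p = 0.0614, and D6RA was lower than D6DMSO, with -3.26 ± 0.68 (SE), adjusted p = 0.000451; the day 3 difference was called without D3RA replicate 1 or 3, and the day 6 call was lost on thinning. Ramp3, a partner protein that turns calcitonin-family receptors into amylin and adrenomedullin receptors, was also a member, as was Adm, a ligand of receptors of this family. Ramp3 read 33.2, 34.4 and 28.8 CPM in the D0 libraries, 6.08, 3.08 and 4.18 in D3DMSO, 1.27, 2.61 and 0 in D3RA, 1.75, 1.64 and 2.01 in D6DMSO and 2.15, 2.95 and 1.85 in D6RA. Ramp3 was lower in RA at day 3, with -2.21 ± 0.58 (SE), adjusted p = 0.00337, and differed by 0.33 ± 0.58 (SE), adjusted p = 0.635, at day 6. Of these 3 genes, only Adm was called on both days.

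**Figure D4:**
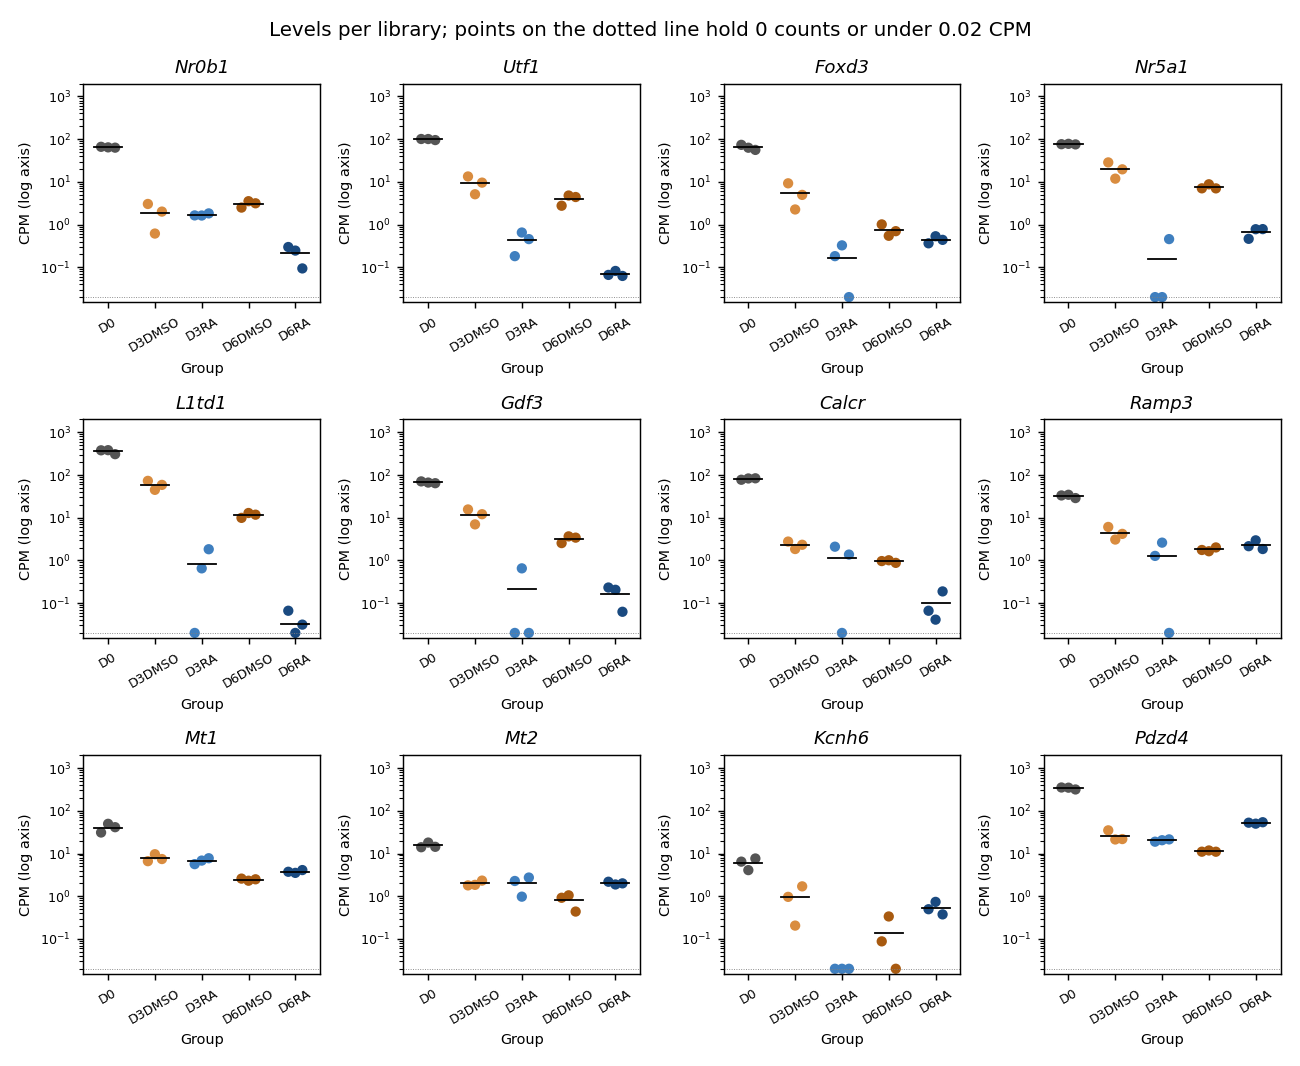
CPM (log axis) of 12 of the 55 genes in each library (points) and group means (bars), with libraries under 0.02 CPM set on the dotted line. Utf1, Nr5a1, L1td1 and Gdf3 are lowest in the RA groups, Nr0b1 overlaps between D3DMSO and D3RA and is lowest in D6RA, and Mt2, Kcnh6 and Pdzd4 are higher in D6RA than in D6DMSO.

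Of the 7 genes for receptors and channels, 5 were lower in RA at day 3 (Htr7, Kcnh6, Lrtm2, Ramp3 and Rtn4rl1) and Calcr was lower at day 6. Htr7 is a serotonin receptor and Rtn4rl1 a Nogo receptor relative. Kcnh6, an ERG-type potassium channel, was the member whose treatment difference turned. Kcnh6 read 6.46, 4.09 and 7.66 CPM in the D0 libraries, 0.967, 0.205 and 1.7 in D3DMSO, 0, 0 and 0 in D3RA, 0.0877, 0.336 and 0 in D6DMSO and 0.496, 0.738 and 0.376 in D6RA. Its counts were few: 19 in D3DMSO and 0 in D3RA, at least a 5.19-fold difference (adjusted p = 0.0111), and at day 6 RA was higher by 2.49 ± 0.88 (SE), adjusted p = 0.0198. Lrtm2, a leucine-rich repeat membrane protein, was lower in D3RA (14 counts against 1, ratio 12.2, 1.86 to 518; adjusted p = 0.00208). Lrtm2 read 9.03, 8.18 and 7.47 CPM in the D0 libraries, 1.38, 0.205 and 0.465 in D3DMSO, 0.0911, 0 and 0 in D3RA, 0.702, 0.714 and 0.875 in D6DMSO and 0.861, 0.82 and 1.03 in D6RA. At day 6 its groups overlapped (adjusted p = 0.677), and D3DMSO replicate 1 held most of its D3DMSO counts.

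Of the 10 genes for transport, metal handling and metabolism, 6 were lower in RA at day 3, and 5 were lower and 3 higher at day 6. Slc39a8 is a zinc, manganese and iron importer, Steap3 an iron reductase of the transferrin cycle, and Mt1 and Mt2 are metallothioneins, small zinc- and copper-binding proteins. Slc39a8 read 178, 185 and 162 CPM in the D0 libraries, 25.1, 19.9 and 18.7 in D3DMSO, 3.19, 3.26 and 3.65 in D3RA, 17.3, 19.9 and 17.2 in D6DMSO and 1.09, 1.48 and 1.88 in D6RA. Every RA library was below every DMSO library, and the differences were -2.60 ± 0.17 (SE), adjusted p = 1.04e-09, at day 3 and -3.63 ± 0.17 (SE), adjusted p = 8.2e-12, at day 6. Steap3 was lower in RA on both days too, with 3 counts in D3RA.

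The metallothioneins were higher in RA at day 6. Mt1 read 31.1, 49.7 and 41.4 CPM in the D0 libraries, 6.63, 9.65 and 7.43 in D3DMSO, 5.65, 6.84 and 7.76 in D3RA, 2.59, 2.31 and 2.49 in D6DMSO and 3.74, 3.52 and 4.1 in D6RA. Mt2 read 14.1, 18.1 and 14.4 CPM in the D0 libraries, 1.79, 1.85 and 2.32 in D3DMSO, 2.28, 0.977 and 2.74 in D3RA, 0.921, 1.05 and 0.438 in D6DMSO and 2.19, 1.89 and 2 in D6RA. Neither was called at day 3, with differences of -0.21 ± 0.19 (SE), adjusted p = 0.365, for Mt1 and -0.05 ± 0.35 (SE), adjusted p = 0.91, for Mt2. At day 6 Mt1 was higher by 0.61 ± 0.19 (SE), adjusted p = 0.01, and Mt2 by 1.40 ± 0.35 (SE), adjusted p = 0.00205; for Mt1 the call was lost on thinning. The 2 are close paralogs, with no protein-coding gene between them in RefSeq, so reads that fit both make their split uncertain. Their upstream sequences are shown because both were called higher in D6RA than in D6DMSO.
Mt1, chr8:94178839-94179088, + strand: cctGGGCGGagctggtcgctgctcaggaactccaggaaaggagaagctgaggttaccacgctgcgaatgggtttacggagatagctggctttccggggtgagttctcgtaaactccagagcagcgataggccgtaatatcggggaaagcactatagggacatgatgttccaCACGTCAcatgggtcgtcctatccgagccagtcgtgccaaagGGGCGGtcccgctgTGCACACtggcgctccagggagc
Mt2, chr8:94172368-94172617, + strand: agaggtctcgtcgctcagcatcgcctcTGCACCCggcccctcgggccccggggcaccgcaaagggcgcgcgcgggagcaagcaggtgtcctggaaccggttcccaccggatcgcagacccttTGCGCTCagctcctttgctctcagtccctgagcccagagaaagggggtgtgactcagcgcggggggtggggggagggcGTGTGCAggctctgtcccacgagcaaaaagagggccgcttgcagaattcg
Mt2 holds 3 metal response cores (2 TGCACNC and 1 TGCGCNC) and Mt1 holds 1 TGCACNC, 2 GC boxes, and a hypoxia element core (ACGTG) that overlaps a CRE half-site (TGACG). Cores of TGCACNC were in 15.1% of the members' windows and 10.9% of all 13335 windows of measured genes, and of TGCGCNC in 22.6% and 22.1%.

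Enpp3, an ectonucleotidase, and Slc35d3, a solute carrier needed for platelet dense granules, were 2 of the members with the largest gaps. Enpp3 read 236, 242 and 228 CPM in the D0 libraries, 26.5, 12.9 and 25.2 in D3DMSO, 9.02, 13.3 and 5.48 in D3RA, 12.9, 19.6 and 15.2 in D6DMSO and 5.5, 5.08 and 5.23 in D6RA. Slc35d3 read 58.7, 61.2 and 56.2 CPM in the D0 libraries, 5.25, 1.64 and 2.32 in D3DMSO, 0.546, 0.326 and 0.457 in D3RA, 1.05, 0.924 and 1.05 in D6DMSO and 0.0993, 0.164 and 0.125 in D6RA. Both were lower in RA on both days, though the Enpp3 libraries overlapped at day 3; Enpp3 differed by -1.22 ± 0.27 (SE), adjusted p = 0.000895, and -1.57 ± 0.27 (SE), adjusted p = 6.94e-05, and Slc35d3 by -2.27 ± 0.35 (SE), adjusted p = 2.89e-05, and -2.83 ± 0.35 (SE), adjusted p = 1.85e-06. Chchd10, a mitochondrial protein of the cristae, was among the 6 genes with the highest D0 level. Chchd10 read 243, 240.4 and 237 CPM in the D0 libraries, 89.5, 30.2 and 48 in D3DMSO, 7.56, 9.12 and 8.22 in D3RA, 34.4, 37 and 40.5 in D6DMSO and 9.34, 8.24 and 9.08 in D6RA. D3DMSO varied from 30.2 to 89.5 CPM while D3RA stayed under 10, a difference of -2.59 ± 0.24 (SE), adjusted p = 8.94e-08; at day 6 it was -2.07 ± 0.24 (SE), adjusted p = 9.27e-07. Cbs, which makes cystathionine from homocysteine, was higher in RA at day 6, Chst1 was lower at day 3 alone, and Them6 was called on neither day.

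Chchd10 was also 1 of 3 members, with Prrg4 and Tent5a, whose upstream window holds ATGCAAAT, the octamer bound by POU factors such as Pou5f1. It was in 3 of 53 windows of members (5.66%) and in 1.26% of all windows. The 53 windows belong to 41 genes, so some genes have several. Whether the shares of a motif differ was not tested. The windows of Chchd10 and Prrg4 are shown for this match.
Chchd10, chr10:75932880-75933129, + strand: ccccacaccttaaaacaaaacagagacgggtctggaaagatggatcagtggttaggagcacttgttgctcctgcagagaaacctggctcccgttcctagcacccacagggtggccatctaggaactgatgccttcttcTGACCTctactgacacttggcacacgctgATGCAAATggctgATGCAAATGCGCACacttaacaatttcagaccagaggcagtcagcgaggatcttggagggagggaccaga
Prrg4, chr2:104849851-104850100, - strand: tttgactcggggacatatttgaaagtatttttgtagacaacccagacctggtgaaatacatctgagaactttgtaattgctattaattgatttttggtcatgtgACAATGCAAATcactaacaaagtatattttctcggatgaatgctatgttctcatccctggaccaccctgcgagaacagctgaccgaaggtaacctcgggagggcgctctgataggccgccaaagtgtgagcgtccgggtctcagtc
In Chchd10 the octamer occurs at 83 to 76 and again at 70 to 63 bases before the start. In Prrg4 it lies at 143 to 136 bases before the start and overlaps a SOX-type hexamer (CATTGT or its reverse ACAATG), which was in 3.77% of members' windows and 6.13% of all. Prrg4, a vitamin K-dependent membrane protein, was lower in RA on both days, with -2.92 ± 0.36 (SE), adjusted p = 2.93e-06, at day 3 and -3.98 ± 0.36 (SE), adjusted p = 4.76e-08, at day 6. Its counts in RA were few, with 58 in D3DMSO and 4 in D3RA, and 135 in D6DMSO and 9 in D6RA. A window was found for 41 of the 55 genes, and their median GC content was 59.6% against 60% for all. CCAAT was in 17% of members' windows and 35.2% of all, GGGCGG in 54.7% and 58.2%, and the CRE half-site in 17% and 25.9%. ACGTG was in 22.6% and 21.2%, CACGTG, which contains it, in 11.3% and 8.12%, TATAAA in 11.3% and 6.3%, and AGGTCA in 13.2% and 10.4%. Neither the ESRRB site nor the ATF4 element was matched in a member's window (0.24% and 0.09% of all windows). These are matches of letters, not measured binding.

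Among 9 signalling and cytoskeletal genes, 3 (Map3k5, Map7d3 and Tnnt1) were lower in RA on both days. The shares lower at day 3 and day 6 were 58.2% and 50.9% of the 55 genes, and 31.4% and 33.1% of all genes. Nothing is read from a group of this size. Tnnt1 encodes slow skeletal troponin T. Tnnt1 read 48.5, 40.1 and 35.9 CPM in the D0 libraries, 4.83, 4.11 and 4.34 in D3DMSO, 0.82, 0.977 and 1.83 in D3RA, 1.36, 1.05 and 1.01 in D6DMSO and 0.166, 0.369 and 0.282 in D6RA. Its differences were -1.83 ± 0.33 (SE), adjusted p = 0.000126, and -2.06 ± 0.33 (SE), adjusted p = 3.02e-05. Map3k5, the stress kinase ASK1, has 1 protein-coding gene between it and Slc35d3 in RefSeq, and both were lower in RA on each day. Map7d3 is a microtubule-binding protein. Pdzd4, a PDZ domain protein, and Clvs2, a clathrin-vesicle lipid-binding protein, were higher in D6RA. Pdzd4 read 352, 349 and 317 CPM in the D0 libraries, 34.9, 21.4 and 21.8 in D3DMSO, 18.9, 20.5 and 21.5 in D3RA, 11.1, 11.8 and 11 in D6DMSO and 52.8, 50.1 and 54.1 in D6RA. The day 3 groups differed by -0.32 ± 0.14 (SE), adjusted p = 0.0542, and the 3 D6RA libraries were above all D6DMSO libraries, with 2.21 ± 0.14 (SE), adjusted p = 3.11e-10. Clvs2 read 5.03, 5.19 and 5.48 CPM in the D0 libraries, 0.967, 0.616 and 0.774 in D3DMSO, 0.455, 0.651 and 0.457 in D3RA, 0.395, 0.042 and 0.0875 in D6DMSO and 1.23, 1.31 and 1.19 in D6RA. Clvs2 was called at day 6 (3.15 ± 0.52 (SE), adjusted p = 4.31e-05) and not at day 3 (adjusted p = 0.528). Mcf2, a guanine nucleotide exchange factor, was lower at day 6 than at day 3 with both treatments, with log2 differences of -2.74 in DMSO and -2.25 in RA. Mcf2 read 21.7, 21.7 and 21.5 CPM in the D0 libraries, 5.25, 2.67 and 3.41 in D3DMSO, 3.55, 1.95 and 4.57 in D3RA, 0.789, 0.336 and 0.569 in D6DMSO and 0.728, 0.574 and 0.751 in D6RA. It was called on neither day between treatments (adjusted p = 0.699 and 0.414). Pde4b, a cAMP phosphodiesterase, Ngef and Rsph1 were likewise not called.

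L1td1, an RNA-binding protein from a LINE-1 element that is characteristic of pluripotent cells, had the lowest fitted treatment differences of the set on both days. L1td1 read 379, 382 and 308 CPM in the D0 libraries, 72.9, 45 and 58.7 in D3DMSO, 0, 0.651 and 1.83 in D3RA, 9.91, 12.9 and 11.8 in D6DMSO and 0.0662, 0 and 0.0313 in D6RA. In D6RA it had 3 counts in 3 libraries, a ratio of 333 (114 to 1620) against D6DMSO, and at day 3 the difference was -7.09 ± 0.89 (SE), adjusted p = 3.01e-06. Trap1a, a tumour antigen gene on the X chromosome, was at 0 in both RA groups. Trap1a read 23.9, 23.4 and 18.7 CPM in the D0 libraries, 0.967, 1.23 and 0.62 in D3DMSO, 0, 0 and 0 in D3RA, 0.921, 0.756 and 0.919 in D6DMSO and 0, 0 and 0 in D6RA. It was at least 5.08-fold lower in D3RA than in D3DMSO and at least 25-fold lower in D6RA than in D6DMSO (adjusted p = 0.000109 and 7.15e-08). Of the other members outside the groups above, Lrrc2 was lower in RA on both days and Tent5a at day 3 alone. Crip1, a LIM domain protein, was lower at day 6 alone. Crip1 read 7.38, 9.28 and 6.05 CPM in the D0 libraries, 1.66, 1.44 and 0.62 in D3DMSO, 1.64, 0.977 and 0.913 in D3RA, 0.702, 1.3 and 0.744 in D6DMSO and 0.0993, 0 and 0.188 in D6RA. The difference was -3.52 ± 0.63 (SE), adjusted p = 0.000112. Vat1l and Tmem238 were higher at day 6. The pseudogene Gm3470 was lower in RA on both days and Gm5424 and Gm7278 were not called, though reads of a pseudogene and its parent cannot be fully told apart.

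From day 3 to day 6, which cannot be told apart from the library set, 24 members were lower in D6DMSO than in D3DMSO and 1, Spon1, was higher (0.56 ± 0.23 (SE), adjusted p = 0.0499), 45.5% in all against 56.4% of all genes. By direction the 24 are 43.6% of the set, against 28.1% of all genes called lower, and the 1 is 1.82%, against 28.3% called higher. The call of Spon1 was lost without any single D0, D6DMSO or D6RA library, and without D3DMSO replicate 1 or 2. The largest falls were those of Kcnh6 (-3.12 ± 0.88 (SE), adjusted p = 0.00634), Mcf2 (-2.74 ± 0.34 (SE), adjusted p = 4.87e-06) and Foxd3 (-2.68 ± 0.43 (SE), adjusted p = 5.92e-05). The call of Kcnh6 was lost on thinning. Nr0b1 differed by 0.87 ± 0.44 (SE), adjusted p = 0.104.

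Between D6RA and D3RA, 26 were lower and 9 higher, 63.6% in all against 69.3% of all genes. By direction, 47.3% of the set was lower, against 32.0% of all genes, and 16.4% higher, against 37.2%. The 9 higher became 5 without D3RA replicate 1, without D6RA replicate 2 or in a fit of the compared groups alone. The shares of all genes in those settings are not given here. Of the 26, Trap1a and Foxi3 held 0 counts in all 6 libraries, and their calls come from the deposited value of 0 counts, which was 2.54 to 4.87 in D3RA and 1.00 to 1.39 in D6RA. The other 24 still include genes of very few counts. After thinning 17 members were lower and 3 higher, without a share of all genes given here. Crip1 (-4.05 ± 0.63 (SE), adjusted p = 2.8e-05), L1td1 (6 counts in D3RA and 3 in D6RA, ratio 10.7, 2.28 to 65.9; adjusted p = 0.00345) and Nr0b1 (-3.13 ± 0.44 (SE), adjusted p = 8.99e-06) had the lowest fitted differences; the call of L1td1 was lost with voom weights and in a fit of the compared groups alone. Tent5a, a poly(A) polymerase, was among the 9 that were higher. Tent5a read 42.5, 47.2 and 47.3 CPM in the D0 libraries, 10.2, 3.08 and 3.56 in D3DMSO, 1.46, 2.93 and 2.28 in D3RA, 6.01, 6.72 and 3.9 in D6DMSO and 9.2, 9.34 and 8.17 in D6RA. It rose by 1.97 ± 0.35 (SE), adjusted p = 0.000102. Lrtm2 went from 1 count in D3RA to 79 in D6RA, a ratio of 14.8 (2.58 to 593; adjusted p = 0.000184). Kcnh6 went from 0 counts to 45, at least 2.9-fold higher (adjusted p = 0.038). The call of Lrtm2 was lost on thinning and that of Kcnh6 without D3RA replicate 1 or D6RA replicate 1 or 2.

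Gene lists written from general knowledge were set beside the members, leaving members out, in comparisons of the day 3 groups with D0 that share the D0 libraries. Of 22 other genes of a shared pluripotency list (Utf1, L1td1, Gdf3, Dnmt3b and Foxd3 are the members on it), 13 were lower and 1 higher in D3DMSO, and 21 lower and 0 higher in D3RA (also 0 at an unadjusted p under 0.05 and 0 with voom weights), with medians of -0.73 and -3.59 (all genes 0.02 and 0.01). Of all genes, 28.2% were called higher and 27.8% lower in D3DMSO than in D0, and 35.0% higher and 33.9% lower in D3RA. Pou5f1 was among the 21, at 1317 ± 98.3 CPM in D0 and 1.79 ± 2.04 in D3RA (n = 3 each), while Lefty2, a Nodal inhibitor, rose in D3DMSO from 3.54 ± 0.71 to 59.8 ± 18.1. The naive list, Nr0b1 apart, had 5 of 14 lower and 5 higher in D3DMSO and 8 lower and 4 higher in D3RA; without D0 replicate 1 or 2 or D3DMSO replicate 2, the count lower in D3DMSO was 3. Gbx2 rose in both, from 0.137 ± 0.237 to 26.5 ± 12.2 and 10.7 ± 1.46 CPM. Fgf4 had 322 counts in D0 and 0 in D3RA. The primed list had 9 of 16 lower and 6 higher in D3DMSO and 13 lower and 3 higher in D3RA, with Fgf8 rising from 2.56 ± 0.66 to 130.4 ± 10.9 in D3DMSO and Etv5 falling from 173.5 ± 3.53 to 1.98 ± 0.26 in D3RA.

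For hypoxia and glycolysis (Adm is a member), 20 of 29 were lower and 4 higher in D3DMSO, and 26 lower and 1 higher in D3RA. Bnip3 fell to 49.7 ± 10.3 CPM in D3DMSO from 193.2 ± 41.8, and Slc16a3 fell to 13.3 ± 4.18 in D3RA from 365.7 ± 35.3. For the ATF4 and amino acid response, 22 of 25 were higher and 1 lower in D3DMSO, and 0 higher and 19 lower in D3RA (0 higher at an unadjusted p under 0.05 and with voom weights). Chac1, a glutathione-degrading enzyme, rose from 9.07 ± 0.72 to 90.5 ± 18.8 in D3DMSO, and Slc7a3, an amino acid transporter, fell from 273.9 ± 13.3 to 7.24 ± 2.33 in D3RA. Immediate early genes had 8 of 19 lower and 4 higher in D3DMSO and 13 lower and 3 higher in D3RA. Genes of cholesterol synthesis had 12 of 22 lower and 2 higher, and then 10 lower and 8 higher. Among all genes the shares against D0 were 28.2% higher and 27.8% lower in D3DMSO, and 35.0% higher and 33.9% lower in D3RA. Nothing is read from list counts near these shares.

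Marker lists of other cell types moved with the treatments beside the loss of the 55 genes. All 14 neural genes rose in D3RA, where their summed level was 1653 to 1819 CPM against 314.7 to 356.9 in D0, with Pax7 and Nhlh2 at 0 in D0. In D3DMSO 1 was higher and 5 lower (summed 237.8 to 253.3). Of 10 mesoderm genes 9 rose in D3DMSO (1399 to 1558 CPM against 36.0 to 40.4 in D0, Wnt3a at 0 in D0), and 4 rose and 4 fell in D3RA (61.2 to 87.2). Of 12 extraembryonic endoderm genes 7 rose and 3 fell in D3DMSO and 4 rose and 5 fell in D3RA, with sums of 532.5 to 588.1 CPM in D0, 553.5 to 803.8 in D3DMSO (Sox7 at 0) and 372.6 to 423.8 in D3RA. Of 10 fibroblast genes 1 rose and 4 fell, and 4 rose and 5 fell, with sums of 59.4 to 94.3 CPM in these groups. Of 6 germline genes 3 rose and 2 fell, and 2 rose and 2 fell. For comparison, 28.2% of all genes rose and 27.8% fell in D3DMSO, and 35.0% rose and 33.9% fell in D3RA. Nothing is read from marker counts near these shares. The part of these cell types in the members' levels was not tested.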

How the data were processed

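RNA was measured in 15 libraries, 3 for each of 5 groups taken from the sample titles; 18 chromatin immunoprecipitation samples were not analysed here. Libraries were made from total RNA depleted of ribosomal RNA with a stranded kit, per the labels. The submitters' processing notes name the aligner STAR 2.6.0c, featureCounts, limma and edgeR besides trimming and quality tools (Trimmomatic 0.32, FastQC 0.11.2), with genome build mm9, and give none of them a role.

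For 14717 genes the authors deposited log2 values (14228 with a symbol, 489 without). Undoing the log2, a constant per library and an added 0.5 gave whole numbers for 100% of values within 0.05, and these recovered counts, scaled to library sizes that follow the deposited scale, give CPM as mean ± SD (n = 3). A deposited value therefore has a floor for 0 counts that differs between libraries. A fold against a group of 0 counts uses a floor of 3 counts over the group; groups of 1 to 3 counts get a ratio of summed counts with a 95% interval for counting error only.

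The deposited log2 values were fitted with limma 3.58.1 (R 4.3.3), with a variance trend and 1 coefficient per group, and p-values were adjusted over 14717 genes by Benjamini-Hochberg. Scripts were tested on simulated data. Promoter windows came from RefSeq (GRCm38.p6) by symbol. Tables were made with pandas 2.3.3 and figures with matplotlib 3.10.9 (Python 3.11.15).

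The members, the 12 gene lists and the rules were chosen with earlier results of these data known. Values were given for the markers, the 12 members with the largest gap, the 6 with the highest D0 level, the 3 called highest and 3 called lowest per contrast, those at the thresholds and those on a list; of other listed genes, at most 4 a list, by largest change. Mt1, Ramp3, the 2 metal response motifs and genes named for a shared role or motif were chosen after their values were seen. Alternatives were quantile normalization, a filter (log2 of at least 5 in 3 libraries), no trend, the compared groups alone, a replicate block, each library left out and other thresholds; thinning to 2189364 counts, voom weights, an added count that follows library size (mean 2) and median-of-ratios scaling were chosen after seeing the data. The values of 1 member are not reported here, though it is in every count.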

Additional observations from a re-analysis of the deposited data

Results flagged for a closer look

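The RA minus DMSO difference at day 6 was compared with that at day 3 by an interaction term in limma. Of the 55 genes, 27 were called, 19 with a higher and 8 with a lower difference at day 6, which is 49.1% against 48.5% of all 14717 genes. The fitted interaction was 5.29 on the log2 scale for Kcnh6, 3.54 for Clvs2, 3.29 for Nr5a1 and 2.53 for Pdzd4. In Kcnh6, Clvs2 and Pdzd4 RA was higher at day 6 and not at day 3, and in Nr5a1 RA was lower on both days, by less at day 6. Kcnh6 held 0 counts and Nr5a1 1 count in the D3RA libraries, so the sizes of their interactions depend on the value deposited for 0 counts. The interaction was -2.31 for Foxi3 and -2.61 for Trap1a. Both genes held 0 counts in all 6 RA libraries. The value deposited for 0 counts was 2.54 to 4.87 in D3RA and 1.00 to 1.39 in D6RA. The RA part of both interactions therefore came from that value alone, with means of 3.93 in D3RA and 1.16 in D6RA. The D3DMSO and D6DMSO means were 7.345 and 6.88 for Foxi3 and 6.979 and 6.818 for Trap1a. After thinning of all libraries to one size, 11 of the 55 were called, and the share of all genes called after it is not given here.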

How the results depend on the processing

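The 5 counts of members called in either direction and the 2 totals over the gene lists stayed within 1.5 times of the reported ones in all settings run except thinning, where D6RA against D3RA had 20 members called (35 before) and the interaction 11 (27 before); thinning leaves fewer counts per gene. Counts by direction moved more: members higher in D6RA than in D3RA were 5 to 10 without 1 library (9 with all), those higher in D3RA than in D3DMSO 0 to 2 (0), those higher in D6DMSO than in D3DMSO 0 to 2 (1), and naive genes lower in D3DMSO 3 to 6 (5). The 55 members became 130 at a gap of 1.5, 11 at a gap of 3 and 94 with the day 3 groups alone. No direction of a reported call reversed. Leaving out 1 library at a time gave 30 to 36 members called for D3RA against D3DMSO, 35 to 39 for D6RA against D6DMSO, 19 to 30 for D6DMSO against D3DMSO, 30 to 37 for D6RA against D3RA and 24 to 31 for the interaction. On the gene lists it gave 136 to 151 calls for D3DMSO (147 with all libraries) and 167 to 176 for D3RA (173). The number of members was 48 to 61, with 48 without D3DMSO replicate 2. The shares of all genes called in the settings of this paragraph are not given here. Nothing about the members is read from how their counts moved. With a replicate block the 5 counts were 35, 36, 26, 37 and 28; same-numbered libraries of different groups had a median correlation of 0.097 in their deviations from the group means (-0.269 to 0.473), and 11 of 15 libraries had their highest mean correlation with their own number, a hint from the data and not the design. Depth limits genes of few counts: 1 count was 0.0911 to 0.457 CPM in D3RA and 0.0313 to 0.041 CPM in D6RA.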

Other observations

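With the day 6 groups left out of the rule, 94 genes stood as far above both day 3 groups as the 55 do above all 4. The 39 that are not among the 55 had a day 6 group less than 2 below D0 on the log2 scale, D6RA as the higher one in 23 and D6DMSO in 16. Some missed the threshold by little, as C1ql2 did with a gap of 1.996, and a rise from day 3 was not tested. In 7 a day 6 group reached the D0 mean on the log2 scale. Grik3, a kainate receptor subunit, started at 20.6 ± 3.06 CPM in D0 (SD, n = 3). At day 3 it was 4.30 ± 1.71 with DMSO and 2.53 ± 1.11 with RA, and at day 6 3.02 ± 0.44 with DMSO and 64.1 ± 1.45 with RA. Cxcl12, a chemokine, did this with DMSO: from 74.8 ± 7.61 CPM in D0 it went to 14.7 ± 3.11 in D3DMSO and 160.6 ± 19.3 in D6DMSO, against 1.57 ± 0.10 in D6RA. The others were Acsbg1, Rassf4, Nbl1, Kcnq3 and Pcsk1n, all highest in D6RA at day 6. These genes were picked by these values, so no test is given, and the day 6 libraries cannot be told apart from their library set.

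By the RefSeq annotation, 6 of the 55 genes lie on the X chromosome (Trap1a, Nr0b1, Pdzd4, Mcf2, Foxr2 and Map7d3), 10.9% against 4.04% of the 13751 measured genes with a RefSeq entry. Besides Mt1 and Mt2, 3 pairs of members lie within a few genes of each other: Slc35d3 and Map3k5 with 1 protein-coding gene between them, and Foxd3 and L1td1, and Cbs and Rsph1, with 5 each.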
